A study of Caenorhabditis elegans with 52 samples.

Results

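Messenger RNA of whole Caenorhabditis elegans adults that lack 2 germline regulators, PUF-8 and LIP-1, was compared with that of wild-type adults after 6 h in the vehicle DMSO. The comparison takes every library with those labels: 2 of the puf-8; lip-1 genotype and 2 of the wild-type strain N2, 4 of the 52 libraries of the series. The worms were young adult hermaphrodites raised from synchronized L1 larvae on seeded plates and moved to liquid S medium with OP50 bacteria and DMSO. The series compares strains that can and cannot have the sex of their germ cells reprogrammed by U0126, an inhibitor of the kinase MEK, and the DMSO libraries show the genotypes without the inhibitor. The labels name the mutated genes, not the alleles, and nothing in them says that the 2 libraries of a group came from separate cultures. The p values therefore reflect a spread between libraries of the same group, which may be technical. That spread was estimated over all 52 libraries of the series, not over these 4 alone. Other libraries enter as reference: the same 2 genotypes in DMSO at 2 and 18 h, and in U0126, at 100 uM, at 6 h, with 2 libraries per group.

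A C. elegans hermaphrodite first makes sperm and then switches its germ cells to oocytes for the rest of its life. The switch is set by a cascade of sex-determination genes that ends in FOG-1 and FOG-3, which direct germ cells to sperm, and much of the cascade is controlled by proteins that bind mRNAs. PUF-8 is one of these RNA-binding proteins, LIP-1 acts as a phosphatase against ERK, and hermaphrodites without both are known to go on making sperm and no oocytes. Whole worms were sequenced, so fewer cells of a type and less RNA per cell cannot be told apart in any value below.

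The wild-type libraries held 16238711 and 17242206 counts assigned to genes and the double mutant 9420800 and 9800936. A count was found for 17793 and 18195 genes in the wild type and for 17768 and 17761 in the mutant. The 10 genes with most counts took 11.7 and 11.5% of the counts in the wild type and 25.7% in each mutant library. Replicates correlated at r = 0.995 in the wild type and 0.992 in the mutant over 9984 genes, against 0.424 to 0.436 between genotypes. These correlations are across genes, which are not independent replicates. One library of the series, labelled N2 untreated replicate 2, went against its label, with sperm mRNAs that the other wild-type libraries lacked. It is not among the libraries compared here, but the spread was estimated over all 52 libraries, so list counts that move by more than 1.5 times without it are given both ways.

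Levels are CPM (counts per 1e6 counts of a library), scaled with TMM, and changes are log2 ratios of the double mutant over the wild type from edgeR's quasi-likelihood fit. A gene is called where its p, adjusted by Benjamini-Hochberg over all 16462 genes tested, is under 0.05. Where a call is said to be lost without a library, that library alone was left out. By that rule 4369 genes (26.5%) were higher in the double mutant and 5571 (33.8%) were lower. The direction of small changes depends on the scaling: TMM put the median log2 change of all genes at -0.08 and relative log expression scaling put it at 0.17, and 44% of the calls were rises with the first and 53.3% with the second. Of all genes tested, 2247 (13.6%) rose and 1458 (8.86%) fell at least 4-fold. In 6747 genes (41.0%) both mutant libraries were above both wild-type libraries, and in 7566 (46.0%) both were below, so an absence of overlap is common in this comparison.

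**Figure D1:**
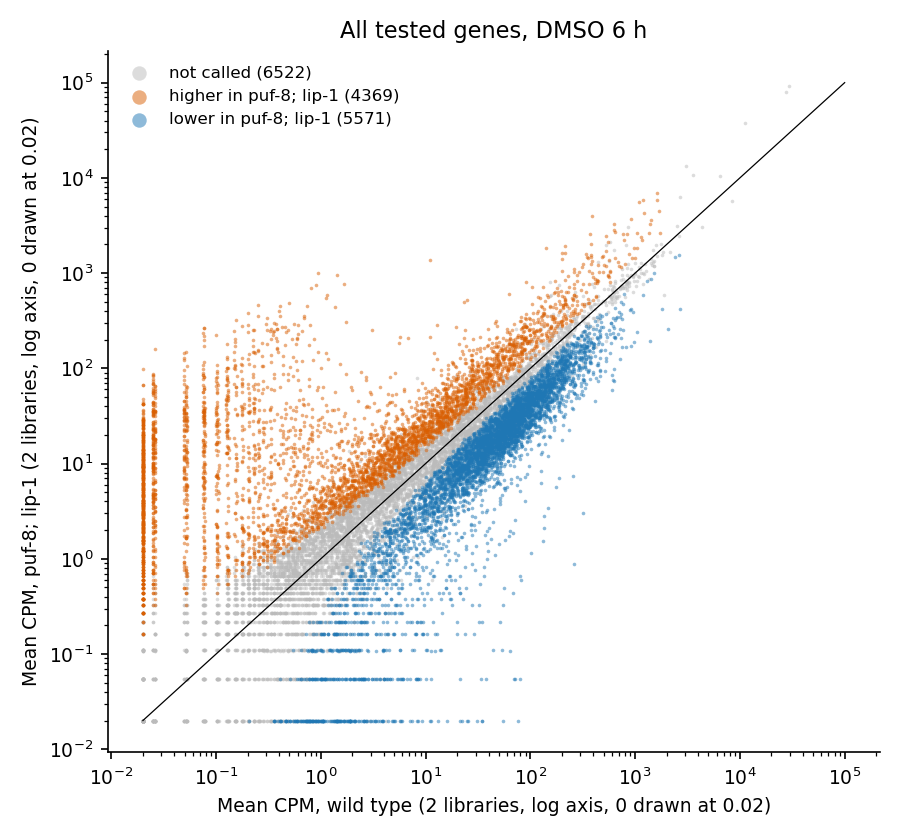
Mean CPM of each of the 16462 genes tested in the 2 wild-type libraries (x axis) and the 2 puf-8; lip-1 libraries (y axis), both on log axes with 0 drawn at 0.02. Orange points are the 4369 genes called higher in the mutant, blue points the 5571 called lower and grey points the rest, and a dense arm of orange points runs along the left edge, where wild-type levels are near 0.

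The mutated genes were checked first. For puf-8 (C30G12.7, chromosome II) the CPM was 124.6 and 125.5 in the wild type and 5.78 and 6.85 in the double mutant (log2 change -4.31, SE 0.46, adjusted p = 2.09e-07). The level of lip-1 (C05B10.1, chromosome IV) was 67.5 and 59.7 CPM in the wild type and 1.64 and 2.28 CPM in the mutant (-5.01, SE 0.58, adjusted p = 4.56e-07). Both genes were low in both mutant libraries and high in both wild-type libraries, as their labels say, and a few counts of each remained in the mutant.

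Among the sex-determination genes the 1 rise was fog-3, and most others fell. The level of fog-3, whose product directs germ cells to sperm, was 0.58 and 0.997 CPM in the wild type and 9.05 and 11.1 CPM in the double mutant (log2 change 3.66, SE 0.86, adjusted p = 8.25e-04). Its partner fog-1, an RNA-binding protein of the same step, was at 23.1 and 21.3 CPM in the wild type and at 21.3 and 25.8 CPM in the mutant (0.08, SE 0.28, adjusted p = 0.818). The groups of fog-3 were far apart, and those of fog-1 overlapped. Of the 22 genes of this list, 15 fell, and the list's median change was -1.09.

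The falls reached genes that push toward either sex. The level of fem-3, which promotes sperm, was 48.5 and 55.6 CPM in the wild type and 11.9 and 12 CPM in the mutant (-2.11, SE 0.37, adjusted p = 4.63e-05). That of tra-2, a membrane protein that promotes the female fate, was 101 and 96.4 CPM against 30.0 and 32.8 CPM (-1.65, SE 0.30, adjusted p = 6.14e-05). Both genes were lower in both mutant libraries by a similar amount, although they act in opposite directions. The other genes that promote the male or sperm fate, fem-1 (-0.54) and fem-2 (-1.3), fell too. So did fog-2 (-1.81) and gld-1 (-2.50), which together repress tra-2 mRNA so that hermaphrodites can make sperm. The 5 mog genes, needed for the switch from sperm to oocytes, fell by 1.05 (mog-1), 1.17 (mog-2), 1.64 (mog-3), 1.35 (mog-4) and 1.12 (mog-5) on the log2 scale, and nos-3, which helps repress fem-3, by 1.76. The remaining falls were laf-1 (-0.68), an RNA helicase, sdc-2 (-0.87), which sets X dosage compensation, and her-1 (-3.09), a secreted signal of male fate that was at 0.738 and 1.25 CPM in the wild type and 0.109 CPM in each mutant library. The transcription factor at the end of the somatic cascade, tra-1, was at 46.0 and 43.0 CPM in the wild type and 38.2 and 43.3 CPM in the mutant and did not pass the test (adjusted p = 0.671). The genes tra-3, atx-2, sdc-1 and xol-1 did not pass it either. Some of the smaller or noisier calls rest on single libraries: fog-2 was no longer called without wild-type replicate 1 (-1.81) or 2 (-1.68) or puf-8; lip-1 replicate 2 (-1.59). The same held for her-1 without wild-type replicate 2 (-2.60) or either mutant library (-3.09), for sdc-2 without replicate 1 of the wild type (-0.75) or of the mutant (-0.74), and for laf-1 without either wild-type library (-0.64 and -0.58) or mutant replicate 1 (-0.63). With relative log expression scaling fem-1, sdc-2, laf-1 and her-1 were not called.

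Genes of several sperm proteins were nearly absent in wild-type adults and abundant in the double mutant. The phosphatase genes gsp-3 and gsp-4 encode nearly identical sperm proteins. For gsp-3 the CPM was 0.158 and 0.249 in the wild type and 268 and 303 in the mutant (log2 change 10.38, SE 1.80, adjusted p = 4.89e-05). For gsp-4 it was 0.105 and 0.349 in the wild type and 156 and 188 in the mutant (9.50, SE 1.64, adjusted p = 4.13e-05). Neither gene reached 1 CPM in a wild-type library, and reads of such similar copies may have been shared between them in the counting.

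All 30 tested genes of the major sperm protein family, which form the crawling motor of the sperm and signal to oocytes, were called higher. Their summed level was 2.48 and 9.73 CPM in the wild type and 4384 and 5678 CPM in the mutant. The largest rise with a count in the wild type was msp-64, at 0.105 and 0.0499 CPM against 245 and 283 CPM. No wild-type library had a count of msp-63, which was at 17.1 and 22.8 CPM in the mutant, at least 260-fold higher when the group's floor is put at 3 counts in all. The family's members are close copies, so the split of counts among them is uncertain. Their median log2 change was 9.45 with genes at 0 set to that floor, and the median of all genes was -0.08.

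The sperm chromatin, nspd and ssp lists moved the same way. In the sperm chromatin list, which includes gsp-3 and gsp-4, 8 of 8 genes rose. Among them spch-1, a basic nuclear protein of sperm, went from 0.211 and 0.0997 CPM in the wild type to 285 and 361 CPM in the mutant (10.95, SE 2.03, adjusted p = 8.48e-05). Both mutant libraries were far above both wild-type libraries. The summed level of the list was 1.84 and 1.95 CPM in the wild type and 1263 and 1466 CPM in the mutant. The nspd family of small peptides and the ssp family, which is related to the major sperm proteins, had 9 of 9 and 9 of 10 genes called higher, ssp-37 being the one that did not pass (3.43 and 3.54 CPM in the wild type against 8.62 and 6.52 CPM).

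In the list of genes that build sperm, 11 of 17 rose and 3 fell. Those with large rises included spe-10 (7.18), an enzyme that adds lipids to proteins of sperm organelles, fer-1 (6.51), needed for those organelles to fuse, spe-4 (6.04), a sperm presenilin, and spe-26 (5.93). The 3 that fell were wee-1.3 (-1.56), spe-39 (-1.47) and cpb-1 (-1.31). Of these wee-1.3 is an inhibitory kinase of the cell cycle and spe-39 a membrane-traffic protein of many tissues. The third, cpb-1, is an RNA-binding protein of germ cells entering sperm meiosis. The transcription factor of spermatogenesis spe-44 did not pass the test (-0.24).

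Genes that act when sperm are activated and meet the egg were higher as well. Of the 13 activation genes 11 rose, among them spe-8 at 0 and 0.15 CPM in the wild type and 26.8 and 27.5 CPM in the mutant (8.31, SE 1.66, adjusted p = 1.87e-04). Its kinase starts the signal that makes sperm crawl. The 1 that fell was zipt-7.1 (57.8 and 65.8 CPM in the wild type, 28 and 29.1 CPM in the mutant), a zinc transporter. The list of genes that sperm need to fertilize the egg had 3 names without a match among the gene IDs, and all 8 genes tested rose. One of them, spe-9, which encodes a surface protein of sperm, was at 0.527 and 0.948 CPM in the wild type and 11.8 and 12.8 CPM in the mutant (4.04, SE 1.12, adjusted p = 0.00317). Another, spe-11, which sperm bring to the embryo, was at 0.211 and 0.997 CPM against 69.3 and 81.7 CPM (6.93, SE 1.60, adjusted p = 7.24e-04).

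**Figure D2:**
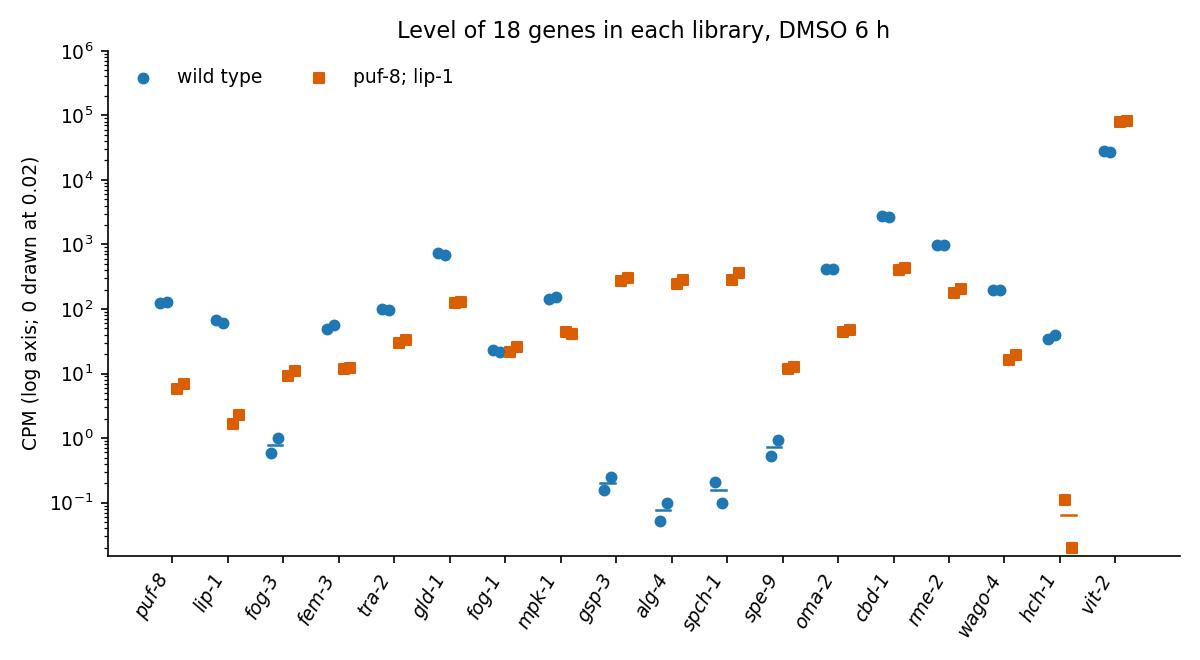
CPM (log axis, 0 drawn at 0.02) of 18 genes in each library, with circles for the 2 wild-type libraries, squares for the 2 puf-8; lip-1 libraries and a short line for each mean. The sperm genes gsp-3, alg-4, spch-1 and spe-9 are higher in both mutant libraries, the oocyte genes oma-2, cbd-1 and rme-2 are lower in both, and fog-1 overlaps.

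The Argonautes, which carry small RNAs, moved in both directions, with 5 of 20 genes higher (25%, near the share of all genes) and 11 lower (55.0%). The Argonaute gene alg-3, known from spermatogenesis, was at 0.527 and 0.648 CPM in the wild type and 188 and 217 CPM in the mutant (8.41, SE 1.66, adjusted p = 1.57e-04). Its paralog alg-4 was at 0.0527 and 0.0997 CPM against 241 and 284 CPM (11.58, SE 2.07, adjusted p = 5.94e-05). With wago-10 (8.57), expressed in sperm, and snpc-1.3 (3.06), a transcription factor for piRNA genes of the male germline that was kept in the list, the mutant libraries lay above the wild-type ones without overlap. The fifth rise was sago-1 (1.03), an Argonaute of secondary small RNAs.

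Argonautes known from the oocyte or from the whole germ line were among the falls. The level of wago-4, a germline Argonaute of inherited silencing, was 199 and 200 CPM in the wild type and 16 and 19.5 CPM in the mutant (-3.48, SE 0.49, adjusted p = 4.03e-06). That of ergo-1, which acts in oocytes and embryos, was 293 and 284 CPM against 48.9 and 48.0 CPM (-2.57, SE 0.53, adjusted p = 2.29e-04). Both were lower in both mutant libraries, as were alg-5 (-2.79), a germline Argonaute of microRNAs, the nuclear Argonautes hrde-1 (-1.47) and nrde-3 (-1.38), the microRNA Argonautes alg-1 (-1.22) and alg-2 (-1.31), wago-1 (-0.98), rde-1 (-0.87), csr-1 (-0.86) and the Piwi protein gene prg-1 (-0.86). The genes vsra-1, ppw-1, ppw-2 and sago-2 did not pass the test. Without either wild-type library alg-2 was no longer called (-1.25 and -1.24), nor without puf-8; lip-1 replicate 1 (-1.16). In the fit of the 4 libraries alone 9 Argonaute genes were called higher, and vsra-1 and ppw-1, under 0 here, were above it.

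Genes of the oocyte were lower. In the list of proteins that regulate maternal mRNAs 17 of 20 genes fell and none rose, with a median change of -2.11. Their summed level was 10987 and 10908 CPM in the wild type and 2145 and 2365 CPM in the mutant. For oma-2, a zinc-finger protein of oocyte maturation, the CPM was 413 and 410 in the wild type and 44.2 and 47.1 in the mutant (-3.17, SE 0.71, adjusted p = 5.29e-04). The other large falls were pos-1 (-3.09) and spn-4 (-3.02), which set cell fates in the early embryo, and cgh-1 (-3.02), an RNA helicase that protects stored mRNAs. Members that did not pass, mex-1, puf-3 and puf-11, had changes of -1.6, -1.43 and -1.53.

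Eggshell and egg activation genes fell in 12 of 18 cases. The level of chs-1, the chitin synthase of the shell, was 607 and 605 CPM in the wild type and 58.7 and 59.5 CPM in the mutant (-3.36, SE 0.66, adjusted p = 1.46e-04). That of cbd-1, a chitin-binding protein of the egg's outer layer, was 2760 and 2657 CPM against 406 and 434 CPM (-2.69, SE 0.73, adjusted p = 0.00281). The mutant libraries were well below the wild-type ones in both genes, and likewise in egg-2 (-3.01), an oocyte receptor for sperm, and egg-3 (-2.60), which anchors egg activation proteins. The eggshell genes perm-2 and perm-4 lay the other way without passing the test: perm-4 was at 925 and 790 CPM in the wild type and 2978 and 3171 CPM in the mutant (adjusted p = 0.0512). Without the library labelled N2 untreated replicate 2 in the fit 2 genes of this list were called higher, and in the fit of the 4 libraries alone 3 were.

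The cell-cycle genes of maturing oocytes followed, with 11 of 13 lower. The cyclin B gene cyb-3 was at 603 and 602 CPM in the wild type and 83.2 and 88.3 CPM in the mutant (-2.81, SE 0.63, adjusted p = 5.31e-04), and the phosphatase gene cdc-25.2 fell by 2.79 on the log2 scale. Among the B-type cyclins cyb-1 did not pass the test, at 311 and 307 CPM in the wild type and 209 and 272 CPM in the mutant. P granules are RNA-rich granules of germ cells. In the list of P granule genes, which also holds Nanos-family RNA regulators, 12 of 19 genes fell. The falls ran from nos-2 (-2.76) and nos-1 (-2.45), both of the Nanos family, to vbh-1 (-0.62). The helicase gene glh-1, at 326 and 373 CPM in the wild type and 281 and 310 CPM in the mutant, did not pass the test. Neither did glh-2, glh-4, meg-1, meg-2, meg-3 and znfx-1. The call of vbh-1 was lost without either wild-type library (-0.59 and -0.52) or without puf-8; lip-1 replicate 1 (-0.52), and with relative log expression scaling.

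Genes of germ cells earlier than gametes were lower too. Of 14 genes for stem cells and the entry into meiosis 13 fell, the exception being lag-2, a ligand for Notch that was under 1 CPM in all 4 libraries. The Notch receptor gene glp-1 was at 310 and 298 CPM in the wild type and 65.1 and 76.7 CPM in the mutant (-2.1, SE 0.49, adjusted p = 7.27e-04). Its target in stem cells lst-1 was at 107 and 108 CPM against 24.4 and 27.3 CPM (-2.05, SE 0.24, adjusted p = 5.61e-07), and sygl-1, the other target, changed by -1.56, a call that was lost without any 1 of the 4 libraries (-1.46 to -1.61). Entry into meiosis depends on gld-2, a poly(A) polymerase, which fell by 1.25 on the log2 scale, and on gld-3, its partner, which fell by 1.91. The list's summed level was 2873 and 2770 CPM in the wild type and 747 and 817 CPM in the mutant.

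Meiosis and DNA replication genes fell almost without exception. All 21 recombination genes were lower, with a median of -1.67, from dsb-1 (-2.16), which is needed for meiotic breaks, to rad-50 (-1.07), which helps process them, among the genes named. The call of rad-50 was lost without replicate 1 of the wild type (-0.94) or of the mutant (-0.81). Of the 20 axis and synapsis genes 19 fell, with pch-2 (-3.36), a checkpoint protein, and zim-2 (-2.94), a pairing-center protein of chromosome V, as the largest. In the axis itself htp-3 was at 113 and 114 CPM in the wild type and 33.4 and 28.8 CPM in the mutant (-1.87, SE 0.23, adjusted p = 8.29e-07). Of 34 replication genes 33 fell, with a median of -1.97. The origin-binding gene orc-1 was at 132 and 121 CPM in the wild type and 13.6 and 11.7 CPM in the mutant (-3.32, SE 0.49, adjusted p = 6.88e-06), and the ribonucleotide reductase gene rnr-1 at 523 and 515 CPM against 89.1 and 98.8 CPM (-2.47, SE 0.58, adjusted p = 7.58e-04). The mutant libraries did not overlap the wild-type ones in any gene named here.

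The PUF family itself, relatives of PUF-8 that bind mRNAs, had 7 of 10 genes called lower and none higher. Besides puf-8 these were puf-7 (-2.84), puf-6 (-2.32), puf-5 (-2.41), puf-12 (-0.94), fbf-2 (-0.83) and fbf-1 (-0.81). The levels of fbf-1, which with fbf-2 maintains germline stem cells, were 22.7 and 26.5 CPM in the wild type and 13.3 and 14.8 CPM in the mutant. Without puf-8; lip-1 replicate 1 the family had 4 genes called lower. The call of puf-5 was lost without any 1 of the 4 libraries (-2.33 to -2.49), that of fbf-1 without either wild-type library (-0.85 and -0.63) or mutant replicate 1 (-0.74), and that of fbf-2 without mutant replicate 1 (-0.69). The change of puf-9, at 48.7 and 48.6 CPM against 43.2 and 47.5 CPM, was not called and turned from -0.10 to 0.24 in the fit of the 4 libraries alone.

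In the RAS-ERK pathway, which LIP-1 dampens, 12 of 20 genes fell and 1 rose. Of all genes tested, 33.8% were called lower and 26.5% higher. The 12 falls include lip-1 itself (-5.01), which is mutated in this genotype, so its fall is no separate evidence on the pathway. The gene of ERK itself, mpk-1, was at 144 and 151 CPM in the wild type and 44 and 41.1 CPM in the mutant (-1.79, SE 0.28, adjusted p = 1.63e-05). The genes of the kinases and the GTPase above it fell as well: lin-45, the RAF kinase, by 1.79 on the log2 scale, mek-2, the MEK kinase that U0126 inhibits, by 0.76, and let-60, the RAS protein, by 0.90. The call of mek-2 was lost without wild-type replicate 2 (-0.61). The scaffold ksr-2 fell by 0.92, a call lost without wild-type replicate 1 (-0.84), wild-type replicate 2 (-0.87) or mutant replicate 1 (-0.80), and ksr-1 did not pass the test (-0.36). The rise was let-23, the receptor of the epidermal growth factor signal, at 17.8 and 16 CPM in the wild type and 30.4 and 28 CPM in the mutant (0.79, SE 0.22, adjusted p = 0.00373). Without the library labelled N2 untreated replicate 2 in the fit, 3 genes of the pathway were called higher. No library measures the phosphorylation of ERK, so these values say nothing of the pathway's activity.

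Yolk protein mRNAs made up a large part of the mutant libraries, although none passed the test. The 6 vit genes, transcribed in the intestine and taken up by oocytes as protein, summed to 78571 and 76535 CPM in the wild type and 235784 and 243525 CPM in the double mutant. Among them vit-2 was at 27716 and 26861 CPM in the wild type and 78497 and 82056 CPM in the mutant (1.56, SE 0.95, adjusted p = 0.161). Both mutant libraries were above both wild-type libraries for each of the 6 genes. The test turned on which libraries set the spread: 6 of 6 were called in the fit of the 4 libraries alone, and 2, vit-2 and vit-6, without the library labelled N2 untreated replicate 2. Without that library and 4 libraries of the double mutant at 1 h that were rich in molting mRNAs, an alternative chosen after seeing the data, 6 of 6 were called, with adjusted p = 5.12e-09 for vit-2. The receptor that oocytes use to take up yolk, rme-2, fell, from 983 and 974 CPM in the wild type to 176 and 204 CPM in the mutant (-2.36, SE 0.80, adjusted p = 0.0135). That call was lost without either mutant library (-2.26 and -2.47), although the levels did not overlap.

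Genes of several somatic tissues were higher. Body-wall muscle had 18 of 22 genes called higher and 2 lower, with a median of 1.55, and its summed level was 5862 and 5639 CPM in the wild type and 17402 and 18594 CPM in the mutant. The myosin heavy chain gene unc-54 was at 1284 and 1121 CPM against 3967 and 4671 CPM (1.84, SE 0.54, adjusted p = 0.00507). The giant muscle protein twitchin, unc-22, rose by 2.23 on the log2 scale and the troponin genes unc-27 and tnt-2 by 2.04 and 1.98, while another troponin gene, tni-1, fell (-1.96). The other fall, unc-120 (-0.92), a transcription factor of muscle, was lost without any 1 of the 4 libraries (-0.80 to -1.05).

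In the intestine 11 of 18 genes rose and 2 fell. The esterase gene ges-1 was at 44.2 and 51.6 CPM in the wild type and 144 and 138 CPM in the mutant (1.56, SE 0.19, adjusted p = 7.63e-07). The protease gene cpr-6 rose by 1.75 on the log2 scale and the metallothionein gene mtl-2 by 1.91. The 2 falls were pept-1 (-1.60), the peptide transporter, and pho-1 (-1.42), an acid phosphatase. Neuronal genes rose in 11 of 24 cases and fell in none, and in 17 of 24 without the library labelled N2 untreated replicate 2. Among them egl-3, a protease that matures neuropeptides, was at 70.7 and 55.4 CPM in the wild type and 203 and 197 CPM in the mutant (1.67, SE 0.46, adjusted p = 0.00332). Synaptobrevin, snb-1, did not pass the test (0.11). The pharynx list did not stand above all genes, with 3 of 11 higher (27.3%, beside 26.5%). That count was 5 with relative log expression scaling and 7 in the fit of the 4 libraries alone. Its 2 falls were the pharyngeal transcription factors pha-4 (-2.07) and ceh-22 (-2.47), the latter not called without puf-8; lip-1 replicate 1 (-2.0).

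The somatic gonad list held 10 rises and 5 falls among 18 genes. The rises included the basement membrane collagens let-2 and emb-9. The level of let-2 was 540 and 551 CPM in the wild type and 2037 and 2225 CPM in the mutant (1.97, SE 0.33, adjusted p = 3.63e-05). The gonadal transcription factors ceh-18 (1.59) and fkh-6 (2.26) rose as well. The falls were inx-14 (-2.11) and inx-22 (-2.88), gap junction proteins that are made in the germ line, vab-1 (-2.41), a receptor for the sperm signal, nhr-6 (-1.49), a nuclear receptor of the spermatheca, and let-502 (-0.88), a kinase of contraction. Markers of the male soma were low in every library. Their summed level was 11.1 and 8.88 CPM in the wild type and 32.6 and 33.2 CPM in the mutant, of which swm-1, a protease inhibitor that also acts in hermaphrodites, gave 7.48 and 6.18 CPM and 27 and 27.1 CPM. The other gene called higher, mab-3, was at 1.63 CPM at most, and its call was lost without wild-type replicate 2 (2.70) or either mutant library (3.87 and 3.29). Of 16 listed genes 7 were too low to be tested.

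**Figure D3:**
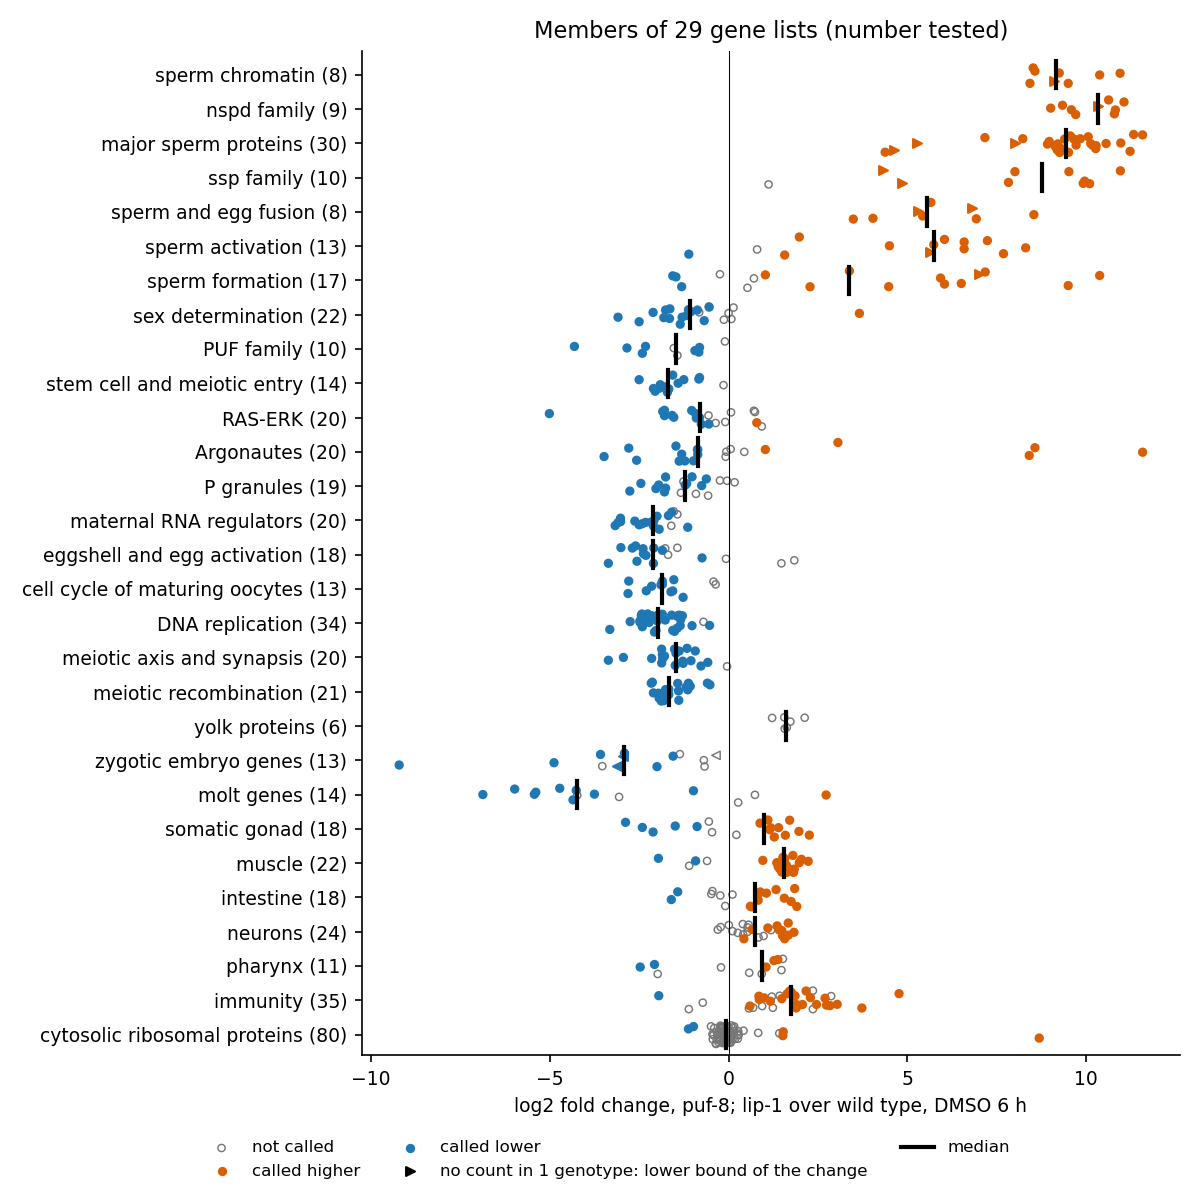
Log2 change of each tested member of 29 gene lists, puf-8; lip-1 over wild type (x axis), with the number tested beside each name; filled points are called, open points are not, triangles are genes with no count in 1 genotype drawn at their bound, and black bars are medians. The 7 sperm lists at the top lie right of 0 with a few exceptions, the lists of the oocyte, meiosis and replication lie left, and muscle, intestine and immunity lie mostly right.

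Among cuticle collagens, which are made in the epidermis, 36 of 150 tested were called higher and 16 lower. The share higher, 24.0%, was near the 26.5% of all genes, and the share lower was 10.7% against 33.8%. The summed level was 14269 and 14214 CPM in the wild type and 63621 and 60663 CPM in the mutant. The level of col-124 was 391 and 379 CPM in the wild type and 4250 and 3777 CPM in the mutant (3.38, SE 0.44, adjusted p = 1.43e-06). Against that, dpy-14, a collagen gene whose loss makes worms short, was at 242 and 281 CPM in the wild type and 0.872 and 0.870 CPM in the mutant (-8.21, SE 0.99, adjusted p = 7.05e-07). No count of col-165 was found in the mutant, against 54.2 and 54.7 CPM in the wild type, at least 333-fold lower. The number of collagens called lower was 9 without puf-8; lip-1 replicate 1 and 10 without replicate 2.

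Genes of molting and of embryos were among the deepest falls. Of 14 molt genes 9 fell, with a median of -4.25, and the summed level was 729 and 785 CPM in the wild type against 97.4 and 101 CPM in the mutant. The level of noah-1, an extracellular matrix protein of the epidermis, was 175 and 200 CPM against 6.87 and 7.39 CPM (-4.72, SE 1.17, adjusted p = 0.00126). The 1 rise was bli-5, a protease inhibitor, at 0.158 and 0.299 CPM in the wild type and 1.09 and 2.07 CPM in the mutant, a call lost without wild-type replicate 1 (2.43) or mutant replicate 2 (2.2). Without the library labelled N2 untreated replicate 2 in the fit 2 molt genes were called higher. Of 23 genes first transcribed in embryos 13 could be tested and 8 fell. The hatching protease gene hch-1 was at 34.7 and 40.2 CPM in the wild type and 0.109 and 0 CPM in the mutant (-9.21, SE 1.48, adjusted p = 6.21e-05), and sdz-28, a gene of the early embryo, fell by 4.88 on the log2 scale. With mutant levels so near 0, the size of the fall of hch-1 is uncertain. The embryonic falls numbered 4 without puf-8; lip-1 replicate 1, 4 without puf-8; lip-1 replicate 2 and 5 without wild-type replicate 2. At 2 h, when 34.6% of all genes were called higher and 31.5% lower, the lists differed from one another. Of the 13 embryonic genes 6 were called lower and none higher. Of the 14 molt genes 2 were called higher and 1 lower, both under the shares of all genes. Of 150 collagens 103 were called higher and 5 lower.

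Of 35 immunity genes 23 rose and 1, dod-24, fell, with a median of 1.76 beside -0.08 for all genes. The lysozyme gene lys-7 was at 155 and 125 CPM in the wild type and 1842 and 1870 CPM in the mutant (3.73, SE 0.43, adjusted p = 3.98e-07), and lys-1 at 253 and 271 CPM against 1036 and 1167 CPM (2.07, SE 0.38, adjusted p = 6.94e-05). The antimicrobial peptide genes cnc-4 and cnc-3 rose by 2.70 and 2.46 on the log2 scale. The call of dod-24 was lost without any 1 of the 4 libraries (-1.68 to -2.27). The list's summed level was 1528 and 1646 CPM in the wild type and 6544 and 6641 CPM in the mutant, without overlap.

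Among 140 C-type lectin genes, secreted or surface proteins that bind sugars, 44 were called higher (31.4%, near the 26.5% of all genes) and 12 lower (8.57%, against 33.8%). Rises of at least 4-fold numbered 22 of 140, a share near the 13.6% of all genes. They included clec-73, nearly absent in the wild type at 0 and 0.15 CPM against 106 and 113 CPM (10.33, SE 1.91, adjusted p = 8.36e-05), and clec-41, at 134 and 127 CPM against 648 and 772 CPM (2.44, SE 0.35, adjusted p = 4.67e-06). In contrast clec-87 was at 825 and 810 CPM in the wild type and 164 and 169 CPM in the mutant (-2.30, SE 0.90, adjusted p = 0.0297), a call lost without any 1 of the 4 libraries (-2.22 to -2.32). The count of lectins called lower was 7 without puf-8; lip-1 replicate 1, 5 without replicate 2 and 6 without wild-type replicate 2. Detoxification enzymes rose in 81 of 176 cases (46.0%, against 26.5% of all genes) and fell in 11 (6.25%, against 33.8%). The glucuronosyltransferase gene ugt-41 was at 12.4 and 9.83 CPM in the wild type and 219 and 206 CPM in the mutant (4.25, SE 0.59, adjusted p = 3.36e-06). Falls included the P450 genes cyp-31A2 (-1.90) and cyp-31A5 (-2.23), close paralogs whose counts may be shared.

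Of 20 fat metabolism genes 14 rose and 2 fell. One of the falls, elo-2 (-0.92), a fatty acid elongase gene, was lost without any 1 of the 4 libraries (-0.83 to -1.0) and with relative log expression scaling or DESeq2. The fatty acid desaturase gene fat-5 was at 84.6 and 77.1 CPM in the wild type and 307 and 315 CPM in the mutant (1.94, SE 0.40, adjusted p = 2.13e-04), and fat-6, a related desaturase, rose by 1.5 on the log2 scale. The lipid regulator sbp-1 rose by 1.47, while nhr-49, a nuclear receptor that controls fat oxidation and desaturation, fell by 1.15. Over the whole family of nuclear hormone receptors 25 of 189 rose and 29 fell, shares under those of all genes. Among them nhr-76, which was at 6.32 and 6.03 CPM in the wild type and 58.6 and 63.9 CPM in the mutant (3.31, SE 0.53, adjusted p = 1.96e-05), and nhr-80 (2.36), which promotes desaturase expression, had the largest rises named, and nhr-25 (-2.97), a regulator of molting, the largest fall. These counts moved with the settings and with single libraries: 12 rose without puf-8; lip-1 replicate 1 and 16 without replicate 2, 51 rose with relative log expression scaling, 18 fell without wild-type replicate 2 and 19 fell without puf-8; lip-1 replicate 2.

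Cytosolic ribosomal protein genes showed little change, with 3 of 80 called higher and 2 lower and a median of -0.07. The exceptions were pairs of paralogs that went opposite ways. The gene rpl-11.1 was at 887 and 938 CPM in the wild type and 430 and 407 CPM in the mutant (-1.12), and its paralog rpl-11.2 at 220 and 218 CPM against 607 and 650 CPM (1.52). Likewise rpl-25.2 fell (-0.98, not called without wild-type replicate 2, at -0.87) and rpl-25.1 rose (1.53). The fifth, rpl-42, went from 0 and 0.0499 CPM to 13.2 and 15.2 CPM. In the fit of the 4 libraries alone, whose scaling differed, 50 ribosomal genes were called higher, so no direction is given for the family.

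Of 21 histone genes 11 fell and 4 rose. The linker histone gene his-24 was at 149.3 and 126.1 CPM in the wild type and 14.4 and 17.9 CPM in the mutant (-3.09, SE 0.78, adjusted p = 0.0015). The histone H3 variant gene his-70 was at 0 and 0.0499 CPM against 15.5 CPM in each mutant library (8.81, SE 1.96, adjusted p = 5.4e-04). Most histone mRNAs made during DNA replication lack a poly(A) tail and the libraries were made from polyA RNA, so this list was captured only in part. Among 12 chaperones 2 rose (16.7%) and 4 fell (33.3%), neither share above that of all genes. One of the rises, hsp-17 (0.73), was lost without wild-type replicate 1 (0.85), wild-type replicate 2 (0.75) or mutant replicate 2 (0.57), and 5 rose with DESeq2. The falls were hsp-110 (-1.13), dnj-13 (-1.21), hsp-90 (-0.73) and hsp-1 (-0.78), and 2 fell without wild-type replicate 1, which cost hsp-90 (-0.64) and hsp-1 (-0.70) their calls. The call of hsp-1 was also lost without wild-type replicate 2 (-0.72) and without mutant replicate 1 (-0.71). The inducible genes hsp-16.2 and hsp-16.41 stayed under 4 CPM in all 4 libraries.

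Several of the rises were of genes without a count in the wild type, whose size is known only as a bound. In 224 genes no wild-type library had a count and the mutant mean was at least 5 CPM, and all 224 were called. Genes picked this way, in either direction, are chosen by their levels in the libraries tested, so their calls are no separate evidence. The 12 rises placed first by the fitted change, an order that for genes at 0 is no measurement, were led by nspd-4, at 98.0 and 98.6 CPM in the mutant, at least 1280-fold higher. The next were ent-3, a member of the nucleoside transporter family, at 69.7 and 63.8 CPM (at least 867-fold), and M70.1, at 63.3 and 69.2 CPM (at least 861-fold). The others were T25B9.6, F32B5.1, R148.7, Y54E2A.9, ZK1248.5, spch-2, mpst-4, C43G2.3 and, with 1 count in 1 wild-type library, Y113G7C.1, at 140 and 179 CPM in the mutant. Those bounds lie under the measured rises of alg-4 and msp-64 (11.58 each). The opposite case was rarer: 23 genes with a wild-type mean of at least 5 CPM had no count in the mutant, of which 22 were called.

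Of the 12 falls placed first by the fitted change, again an order that is no measurement for genes at 0, F41F3.3 was at least 471-fold lower. Its level in the wild type was 80.1 and 73.8 CPM. The collagen gene col-165, the lipocalin-related gene lpr-4 (31.1 and 37.3 CPM, at least 209-fold lower), the genes grl-7 and grl-16, of a hedgehog-related family, and abu-14 were among the others. The full set of 12 included ZK180.5, C02E7.6, T03G6.1, R02F11.1, oac-51 and C08F1.10. Without either mutant library F41F3.3, ZK180.5, lpr-4, grl-7 and grl-16 were no longer called, and grl-16 was not called without either wild-type library or in the fit without the library labelled N2 untreated replicate 2, although its levels, 13.5 and 12.7 CPM against 0 and 0, did not overlap. At 2 h the gene F41F3.3 was at 173 and 26.3 CPM in the mutant libraries and at 0 and 0.0578 CPM in the wild type, the reverse of the order at 6 h.

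Calls were spread unevenly over the chromosomes. On chromosome X 17.1% of 2246 tested genes were called lower, against 46.4% of 2562 on chromosome I and 45.8% of 2439 on chromosome III, with chromosomes II (36.9%), IV (32.5%) and V (25.6%) between. The share called higher differed less, from 21.4% on chromosome III to 30.2% on chromosome IV, and was 29.4% on X. Rises of at least 4-fold were least frequent on X, where they made up 5.21% of tested genes, and most frequent on chromosome IV, at 19.0%. The X chromosome is known to be poor in genes of sperm and of the germ line in general. The median log2 change was 0.30 on X and -0.56 on chromosomes I and III. These shares are a description, since neighbouring and related genes are not independent.

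**Figure D4:**
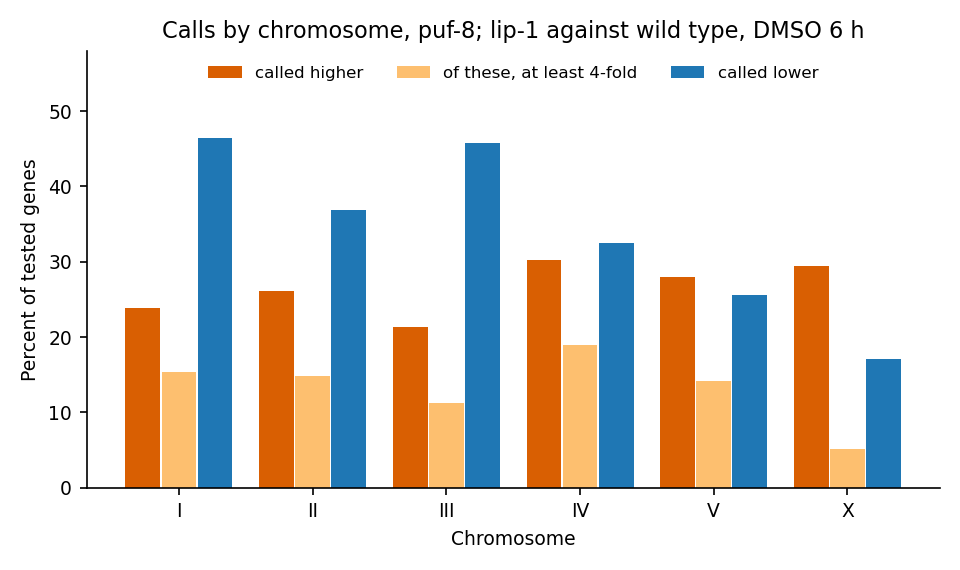
Percent of the tested genes on each chromosome (x axis) that were called higher in puf-8; lip-1 (orange), higher by at least 4-fold (light orange) or lower (blue). On X the bar of falls, 17.1%, is the lowest of the 6, and that of rises of at least 4-fold, 5.21%, is too.

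The same contrast was made in separate libraries at 2 and 18 h in DMSO and at 6 h in U0126, none of which it shares with the comparison above. At 2 h 5696 genes (34.6%) were called higher and 5193 (31.5%) lower, and at 18 h 3348 (20.3%) and 3798 (23.1%). In U0126 at 6 h 5188 (31.5%) were called higher and 4937 (30.0%) lower. Of the genes higher at 6 h in DMSO, 3774 were also higher at 2 h, which is 86.4% of the first set and 66.3% of the second, and 3 were lower there. Of those lower at 6 h, 4593 were lower at 2 h (82.4% and 88.4%), and 108 were higher. At 18 h 2792 of the rises (63.9% and 83.4%) and 2892 of the falls (51.9% and 76.1%) were shared, with 63 and 30 in the opposite direction. In U0126 4038 rises (92.4% and 77.8%) and 4662 falls (83.7% and 94.4%) were shared, with 6 and 4 opposite.

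In the double mutant the summed level of the major sperm proteins was lower at each later hour sampled, and that of the maternal RNA regulators was higher. The summed level of the major sperm proteins was 7130 and 7642 CPM in the mutant at 2 h, 4384 and 5678 CPM at 6 h and 3176 and 4123 CPM at 18 h. In the wild type it was 29.3 and 76.6 CPM at 2 h, 2.48 and 9.73 CPM at 6 h and 0.286 and 0.185 CPM at 18 h. The 3 hours did not overlap in either genotype, and at every hour the mutant was above the wild type. Not every sperm list had that order: the nspd family in the mutant summed to 1254 and 1218 CPM at 2 h, 1858 and 1582 CPM at 6 h and 473 and 592 CPM at 18 h. The maternal RNA regulators summed to 1508 and 1400 CPM in the mutant at 2 h, 2145 and 2365 CPM at 6 h and 5576 and 4340 CPM at 18 h. In the wild type they summed to 13902 and 12524 CPM, 10987 and 10908 CPM, and 8263 and 7828 CPM. At 18 h 2 of the 20 genes were called lower than in the wild type, and at 2 h 20 of 20 were. The cell-cycle genes of maturing oocytes in the mutant were at 985 and 1128 CPM, 916 and 1009 CPM, and 1619 and 1437 CPM, so that 2 h and 6 h overlapped. The DNA replication list in the mutant summed to 1152 and 1142 CPM, 1543 and 1595 CPM, and 3257 and 2653 CPM at the 3 hours.

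Embryonic genes in the wild type were higher at each later hour, and molt genes were higher at 6 h than at 2 h and overlapped between 6 h and 18 h. Molt genes summed to 188 and 309 CPM in the wild type at 2 h, 729 and 785 CPM at 6 h and 668 and 773 CPM at 18 h, and to 252 and 176 CPM, 97.4 and 101 CPM, and 100 and 103 CPM in the mutant. Embryonic genes in the wild type summed to 71.0 and 100 CPM, 119 and 123 CPM, and 169 and 176 CPM. Yolk protein genes in the mutant summed to 139113 and 170874 CPM at 2 h and to 362058 and 305814 CPM at 18 h. Levels at different hours were compared within a genotype only as values, with no test. Each hour is a separate pair of libraries, and the age of the worms and the time in DMSO cannot be told apart.

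**Figure D5:**
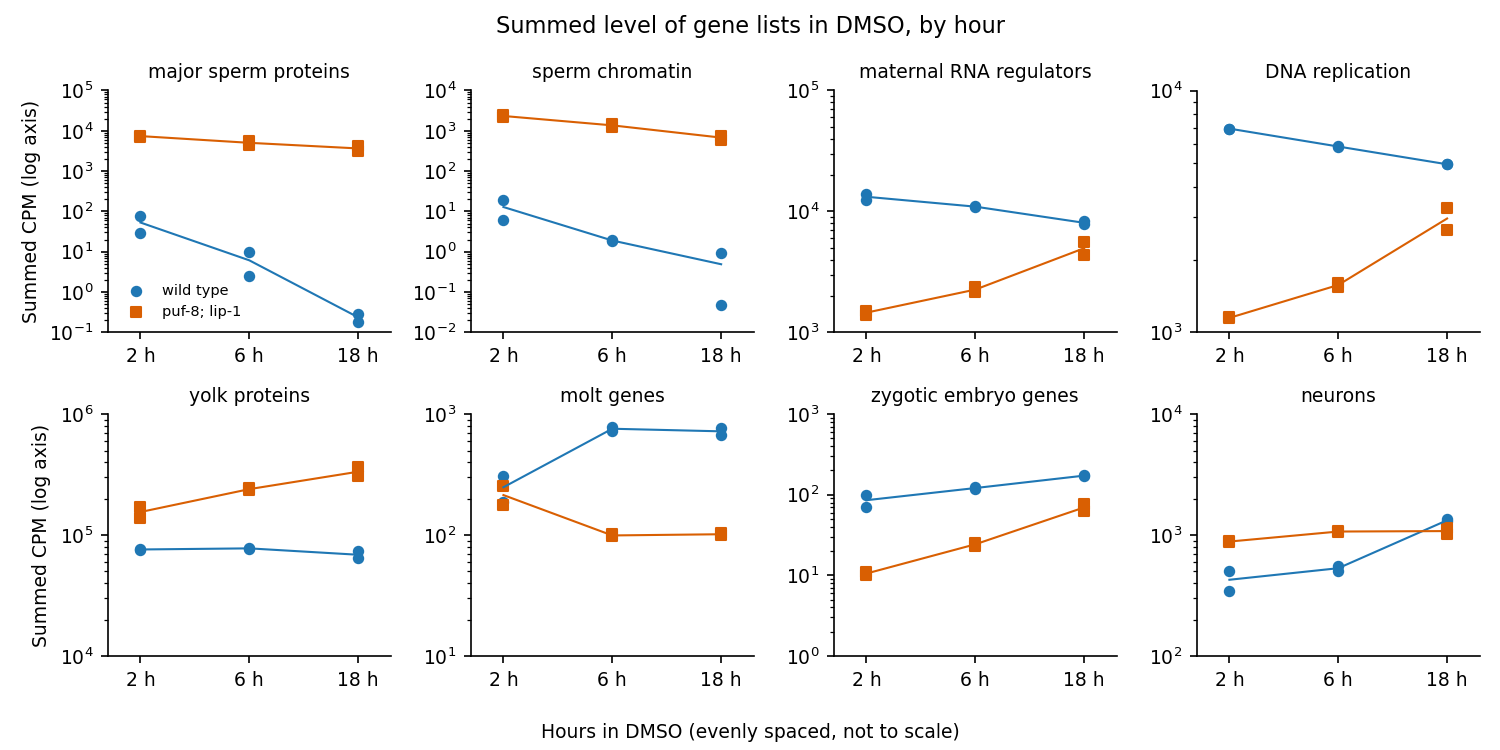
Summed CPM (log axis) of 8 gene lists at 2, 6 and 18 h in DMSO (x axis, evenly spaced), with 2 wild-type libraries (blue circles) and 2 puf-8; lip-1 libraries (orange squares) per hour and lines through the means. Major sperm proteins in the mutant go from 7130 and 7642 at 2 h to 3176 and 4123 at 18 h, while its maternal RNA regulators go from 1508 and 1400 to 5576 and 4340.

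The change of the genotype effect between hours was tested directly. Between 2 h and 6 h 20 genes (0.121%) had a larger log2 difference of mutant over wild type at 6 h and 196 (1.19%) a smaller one, with 2152 at an unadjusted p under 0.05. Between 6 h and 18 h 524 genes (3.18%) had a larger difference at 18 h and 267 (1.62%) a smaller one, with 3735 at an unadjusted p under 0.05. These counts rest on the spread that the library labelled N2 untreated replicate 2 adds. Without it they were 473 and 712 between 2 h and 6 h, and 2783 and 1064 between 6 h and 18 h. Without single libraries of the hours compared they were as low as 2 and 16, and 34 and 37.

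Over the 196 genes whose difference was smaller at 6 h than at 2 h, the median of mean CPM was 1.57 in the wild type at 2 h and 13.2 at 6 h, and in the mutant 6.65 and 2.04, so the wild type was higher and the mutant lower at the later hour. They included 12 cuticle collagens of 150 tested. The larger differences included cysl-2, a cysteine synthase family gene of the hypoxia response, at 14.9 and 21.3 CPM in the wild type and 20.4 and 17 CPM in the mutant at 2 h, and at 23.2 and 23 CPM and 157 and 259 CPM at 6 h (difference 3.14, SE 0.58, adjusted p = 0.00685). Its level in the mutant at 18 h was 139 and 65.8 CPM.

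Between 6 h and 18 h the number of genes called in the germline lists turned on the library labelled N2 untreated replicate 2. Without it the share of all genes with a larger difference at 18 h was 17% in place of 3.18%, and with a smaller one 6.50% in place of 1.62%. For DNA replication 1 of 34 genes had a called larger difference, near the share of all genes, and 29 of 34 without that library. For recombination the counts were 6 and 20 of 21 and for maternal RNA regulators 1 and 13 of 20. For the eggshell list they were 0 and 8 of 18 and for sex determination 0 and 11 of 22. Stem cells and meiotic entry had 5 and 13 of 14, axis and synapsis 5 and 17 of 20 and the PUF family 3 and 5 of 10. Argonautes had 4 and 10 of 20 and P granules 3 and 14 of 19. Among these lists, those with 3 or more calls over all 52 libraries stood above the 3.18% of all genes. A larger difference is one nearer to 0 for a gene that was lower in the mutant at 6 h. No gene of the major sperm proteins, the nspd and ssp families or sperm chromatin was called in either fit. With all 52 libraries their median log2 differences were 3.68, 1.15, 0.35 and 1.23, in that order. In the wild type at 18 h the major sperm proteins summed to only 0.286 and 0.185 CPM. At such low levels an absence of calls does not show that the difference stayed the same. Neuronal genes had smaller differences in 6 of 24 cases, and in 19 of 24 without that library. At 18 h 9 of the 24 were called lower in the mutant (beside 23.1% of all genes) and none higher, while at 6 h 11 were called higher and none lower. In the mutant the neuronal genes summed to 1070 and 1067 CPM at 6 h and 1139 and 1017 CPM at 18 h. Their summed level in the wild type was 558 and 505 CPM at 6 h and 1303 and 1345 CPM at 18 h, and eat-4, a glutamate transporter, was at 3.32 and 1.70 CPM and at 16 and 16.8 CPM, against 7.09 and 7.83 CPM and 5.99 and 6.19 CPM in the mutant (difference -3.01, adjusted p = 3.5e-04).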

How the data were processed

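Per the labels' protocols, RNA of whole worms was extracted with Trizol and an Illumina TruSeq kit was used for the libraries. The authors deposited raw read counts per gene, not normalized, for 45461 gene IDs in each of 52 libraries. The submitters' processing notes list the ce10 build, TopHat, CASAVA and DESeq. The sources used here do not give the counting tool, its annotation or whether it used strand. Names and chromosomes of 44936 IDs came from an Ensembl annotation of WBcel235, used for names only, and 525 IDs had none. The 5 closing lines of each table, unassigned categories, entered neither library sizes nor tests. In the 4 libraries compared, reads outside any gene were 49.8 to 51.0% and ambiguous reads 0.32 to 0.44%. The kit does not mark strand, so counts of overlapping genes are uncertain: of the 408 genes chosen by the naming rule 90 overlap a gene on the other strand and 15 one on the same strand.

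All 52 libraries, 29 groups, were fitted with 1 coefficient per group (23 residual degrees of freedom). The filter, 1 CPM or more in 2 or more libraries, left 16462 genes. Libraries were scaled by TMM, and tests were edgeR 4.0.16 quasi-likelihood F tests in R 4.3.3, with Benjamini-Hochberg adjustment within a comparison. DESeq2 1.42.0 was an alternative. The method was tested on simulated data. A standard error is the log2 change over the square root of F. For a gene with no count in 1 genotype the fold is a bound against 3 counts over the group. Replicates differed by more than counting noise (chi-square per degree of freedom 3.71 and 3.76), so none was a copy of its partner. Same-numbered libraries of the 2 genotypes did not deviate together (r = -0.002 over 9984 genes).

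The comparison, the 39 gene lists and the tests were chosen with earlier results of these data known. Some genes, such as gld-1, gsp-3, gsp-4, spe-4 and wee-1.3, are in several lists, so counts of different lists are not independent. The genes named were, by rule, the 12 largest rises and 12 largest falls by fitted change with at least 5 CPM in the higher genotype and no overlap, all members of lists of up to 14 genes and of the PUF, sex determination, RAS-ERK and Argonaute lists, the 4 largest rises, 4 largest falls and 4 highest members of longer lists, and the 5 largest and 5 smallest differences between hours. Members named for not passing a test, and fer-1, spe-26 and mex-1, were chosen after their values were seen. Counting sets the precision of low values only. The spread between libraries of a group, estimated over all 52 libraries, sets that of the rest.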

Additional observations from a re-analysis of the deposited data

Results flagged for a closer look

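These results stand out because the effect of the genotype differed between hours by a test of the difference itself, in edgeR's quasi-likelihood test with Benjamini-Hochberg adjustment. They are the 5 largest and 5 smallest differences of each test, with 2 libraries per group.

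Between 2 h and 6 h 5 genes had the most negative differences, and all 5 had no count in the double mutant at 6 h. Their mean level in the mutant at 2 h was 99.8 CPM for F41F3.3 (adjusted p = 0.0185), 67.5 CPM for ZK180.5 (adjusted p = 0.0161), 78.5 CPM for grl-16 (adjusted p = 0.0364), 31.3 CPM for C02E7.6 (adjusted p = 0.0179) and 21.7 CPM for the collagen gene col-65 (adjusted p = 0.00923). In each of the 5, mutant replicate 1 at 2 h was above replicate 2, as in col-65 at 33.7 and 9.75 CPM, and the wild type was under 0.2 CPM at 2 h.

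The 5 most positive log2 differences were 3.95 for the P450 gene cyp-13A5 (adjusted p = 0.0331), 3.14 for cysl-2 (adjusted p = 0.00685), 3.13 for ugt-63 (adjusted p = 0.0347), 2.97 for R02C2.7 (adjusted p = 0.0367) and 2.74 for F52D2.6 (adjusted p = 0.0247). In the mutant cyp-13A5 was at 0.69 and 0.715 CPM at 2 h and at 74.2 and 42.7 CPM at 6 h, while the wild type was at 4.39 and 7.22 CPM and at 32.3 and 29.6 CPM.

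Between 6 h and 18 h the most negative log2 differences were -8.39 for the collagen gene col-147 (adjusted p = 0.0128), -7.52 for C01G10.6 (adjusted p = 0.0433), -6.05 for EGAP4.1 (adjusted p = 0.00149), -5.89 for col-149 (adjusted p = 0.035) and -5.74 for grd-10 (adjusted p = 2.31e-04), a hedgehog-related gene. At 18 h col-147 was at 95.7 and 98.0 CPM in the wild type and 0.171 and 0.406 CPM in the mutant, and at 6 h all 4 libraries were under 2.1 CPM.

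The most positive were 3.63 for cyp-33B1 (adjusted p = 0.0394), 3.17 for ZC302.3 (adjusted p = 0.0306) and 3.05 for C30F12.3 (adjusted p = 0.0101), together with a pair of genes without a count in the wild type at 18 h. Of that pair ilys-3, a lysozyme gene, had a mean of 14.6 CPM in the mutant at 18 h (adjusted p = 0.0444) and catp-2 had a mean of 10.2 CPM in the wild type at 6 h (adjusted p = 0.0124). In the mutant cyp-33B1 was at 19.2 and 14.3 CPM at 6 h and at 191 and 168 CPM at 18 h.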

How the results depend on the processing

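The counts of genes higher and lower at 6 h stayed within 1.5 times of 4369 and 5571 under every alternative, at 3642 to 6280 and 4227 to 6282. The replicate block gave 4304 and 5523 and changed no call of the 408 genes chosen by the naming rule, and same-numbered libraries did not deviate together (r = -0.002). Without 1 of the 4 libraries 35 to 46 of the 408 lost their call and none turned. In the fit of the 4 libraries alone 9 uncalled genes turned: puf-9 (0.24), tra-1 (0.22), par-1 (0.25), vsra-1 (0.29), ppw-1 (0.26), ugt-62 (0.30), rpl-10 (0.23), rpl-4 (0.21) and rpl-3 (0.24). That fit, DESeq2 and relative log expression scaling put 53.0, 54.3 and 53.3% of the calls above 0, against 44%, and the fit without a filter 51.2%.

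The tests between hours depended on the settings. Between 2 h and 6 h the genes with a larger difference (20) numbered 32 without the filter, 236 with DESeq2, 38 with relative log expression scaling, 473 without N2 untreated replicate 2, 3333 in the compared libraries alone, 11 with the replicate block, 985 without that library and the 4 molting libraries (chosen after seeing the data) and 2 to 11 without 1 replicate. Those with a smaller difference (196) numbered 380, 129, 712, 980 and 1514 with DESeq2, relative log expression, without N2 untreated replicate 2, in the compared libraries alone and without the 5 libraries, and 16 to 154 without 1 replicate (16 to 124 where the count moved by over 1.5 times). Between 6 h and 18 h the larger differences (524) numbered 20 without the filter, 267 with relative log expression, 2783 without N2 untreated replicate 2, 3334 in the compared libraries alone, 302 with the replicate block, 3357 without the 5 libraries and 34 to 307 without 1 replicate. The smaller ones (267) numbered 61 without the filter, 551 with DESeq2, 1064 without N2 untreated replicate 2, 3078 in the compared libraries alone, 177 with the replicate block, 1554 without the 5 libraries and 37 to 113 without 1 replicate. The cause was not tested, except that leaving out a replicate leaves a group with 1 library, assumed to vary like the others. Depth limits genes with a few counts, whose folds are given as bounds.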
